A study of Mus musculus with 40 samples.

Results

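The comparison described here is the second step of the F passages, tumours labelled F2 against tumours labelled F1. It takes 9 of the 40 libraries of the series, chosen by their passage label alone: F1 tumours A, B, D and E (n = 4) and F2 tumours A to E (n = 5). All come from YUMM1.7, a mouse melanoma line driven by mutant Braf, which was passed serially through mice. Tumours were dissociated, the tumour cells were grown in culture for 1 to 3 passages, and polyA RNA of the cultured cells was sequenced, so F1 and F2 share the line, the growth medium and the culture step. The labels give each group only as a passage, and the labels used here state no strain, sex or age for the F1 and F2 hosts and no treatment. Each letter is a different tumour of its passage, and in such cultures fewer cells of a type and less RNA per cell cannot be told apart. Whether tumours of one letter in F1 and F2 descend from each other is not stated.

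Repeats derived from transposable elements make up a large part of the mouse genome. LTR retrotransposons such as IAP, ETn, VL30, MERVL and endogenous murine leukaemia viruses are relics of retroviruses, LINE-1 elements encode their own reverse transcriptase, SINEs such as B1 and B2 depend on LINE-1 proteins, and DNA transposons such as Tigger1 are old and no longer move in mice. Cells keep many of them silent with DNA methylation and with histone H3 lysine 9 methylation set by Setdb1 and Trim28. Repeat copies also lie inside ordinary transcripts, mostly in introns and 3' UTRs, where reads on them report the host gene as much as the element.

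The value of a copy is called signal here and is the number of reads on it divided by a factor of its library. Reads in repeat copies numbered 1502939 to 1935341 in the F1 libraries and 1619774 to 2001795 in the F2 libraries, and 1 read was worth 0.878 to 1.13 units of signal. The 9 libraries were about as alike between passages as within them: Pearson's r of log2(signal + 1) over 33215 copies was 0.797 to 0.868 within F1, 0.806 to 0.869 within F2 and 0.777 to 0.87 between them, as a description over copies that share libraries. The labels name a first sequencing batch in 2021, a second in 2022 and a resequencing of F2 cells in 2022 without assigning libraries, so batch and passage cannot be told apart. The main limma p-values rest on the spread between libraries within a group, pooled over all 11 groups of the 40 libraries. Exact permutation p-values use the F1 and F2 libraries alone. Neither measures the spread of repeated culture or sequencing of one tumour.

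Markers of other cells were few. Of the 10 melanoma and pigment cell markers only Tyr and Mlana hold an exon copy; Tyr was at 0 in all 9 libraries and Mlana had 1 read in F2 C, so the pigment identity of the line could not be checked. The T cell markers summed to at most 3.28 and the endothelial markers Pecam1, Vwf and Ptprb were at 0 in every library. The macrophage markers summed to 9.40 to 40.6 in F1 and 9.11 to 26.2 in F2, mostly Cd14, with Tyrobp and Laptm5 at 0 and Adgre1 and Itgam above 0 only in F1 B, F1 D and F2 D. The fibroblast sum was 383 to 649 in F1 and 434 to 1129 in F2, almost all of it Pdgfra, while Dcn and Fap were at 0. In the parental YUMM1.7 cultures Pdgfra read 875 to 1644 and Cd14 read 9.09 to 17.4. Both were therefore read in cultures of the line itself, and which cells gave their signal in F1 and F2 was not tested.

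No repeat subfamily, single copy or host gene passed the test between F2 and F1. With limma on log2(signal + 1) and Benjamini-Hochberg adjustment, 0% of 1004 subfamilies, 0% of 33215 copies and 0% of 7412 host genes were called at an adjusted p under 0.05. The smallest adjusted p was 0.0931 for subfamilies, 0.119 for copies and 0.166 for host genes. At an unadjusted p under 0.05 there were 109 subfamilies, 2596 copies and 697 host genes. With limma fitted to the F1 and F2 libraries alone, the 697 host genes became 504 and their smallest adjusted p was 0.711. On the recovered reads edgeR called 0 at each level, and DESeq2 called 3 copies, 0 subfamilies and 8 host genes. The preceding step, F1 against F0, gave 89 called copies, 49 subfamilies and 61 host genes in the same model, but the comparisons share the F1 libraries and their difference was not tested. Values below are therefore descriptions of features that missed the threshold, unless a call under another setting is named.

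Differences between the passages leaned to higher values in F2. The median log2 difference was 0.08 over subfamilies, 0.09 over copies and 0.04 over host genes, and with TMM factors in place of the deposited ones it was 0.01, 0.02 and 0.02. By place, the median over copies was 0.15 in introns, 0.13 in exons of noncoding transcripts and 0.06 between genes. It was 0.04 in 5' UTRs, 0.02 in 3' UTRs and 0.01 in coding exons. Subfamilies at an unadjusted p under 0.05 were 8.86% higher and 1.99% lower in F2, copies 5.4% higher and 2.41% lower, and host genes 5.9% higher and 3.51% lower. Groups that did not overlap in signal, with every F2 tumour above every F1 tumour, were found for 2.49% of subfamilies, 1.03% of copies and 0.958% of host genes, and with every F2 tumour below for 0.199%, 0.548% and 0.823%.

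Among subfamilies, the DNA transposon Tigger1 had the second smallest p. Its signal was 81.7, 74.3, 59.9 and 106.2 in F1 A, B, D and E and 141, 116, 106.4, 115 and 154 in F2 A to E. Every F2 tumour lay above every F1 tumour, though F2 C and F1 E were almost level. The means were 80.5 ± 19.4 (SD, n = 4) and 126.4 ± 20.02 (SD, n = 5), a log2 difference of 0.66 (SE 0.16, limma adjusted p = 0.0931). In F0 the mean had been 209 ± 30.1 (SD, n = 4), so F2 tumours held a level between F1 and F0. Without F1 E, the highest F1 tumour, Tigger1 passed (limma adjusted p = 0.0146), and it was also called with the intron share of each library as a covariate; the adjusted p ran from 0.0146 to 0.508 over the alternatives.

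The other subfamilies with the smallest p on the higher side were MER92-int, ERVB7_3-LTR_MM, LTRIS4A and L1MEg1. The first 3 are LTR-derived and L1MEg1 is an old LINE-1. For ERVB7_3-LTR_MM the values were 17.6, 61.9, 35.3 and 37.6 in F1 and 70.2, 89.6, 79.0, 131 and 65.4 in F2, with no overlap (log2 difference 1.25, SE 0.35, limma adjusted p = 0.258). L1MEg1 stood at 15.5 ± 2.50 (SD, n = 4) in F1 and 29.2 ± 5.48 (SD, n = 5) in F2, again with no overlap. MER92-int averaged 26.7 ± 10.1 (SD, n = 4) against 46.6 ± 11.4 (SD, n = 5), and F1 E lay inside the F2 range. With copies in exons left out, the log2 difference of MER92-int was 0.10 (SE 0.65) where it had been 0.82 (SE 0.20), and it was called without F1 E (limma adjusted p = 0.012) and without F2 A (0.0476), with 0.012 to 0.973 over the alternatives. LTRIS4A averaged 20.6 ± 9.19 (SD, n = 4) against 45.4 ± 15.1 (SD, n = 5), and was as far apart outside exons (log2 difference 1.149 in both).

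On the lower side RLTR20A2B_MM, an LTR, had the smallest p of all subfamilies. It stood at 61.5, 33.8, 42.8 and 54.5 in F1 and at 34.6, 17.5, 13.7, 25.8 and 25.4 in F2. The groups overlapped only in that F2 A lay above F1 B. The log2 difference was -1.04 (SE 0.24, limma adjusted p = 0.0931), and RLTR20A2B_MM passed with TMM factors, with the intron covariate, without F1 B and without F2 A (adjusted p = 0.0106 to 0.508 over the alternatives). L1MB1, an old LINE-1, read 636, 181, 299.5 and 711 in F1 against 178 to 231 in F2, so that F1 A and F1 E carried the difference and F1 B lay level with F2. Without F1 B the L1MB1 call passed (limma adjusted p = 0.0224; 0.0224 to 0.866 over the alternatives), and outside exons its difference was -0.12 (SE 0.19). RLTR12D was lower in every F2 tumour (1439 ± 67.6 (SD, n = 5) against 1739 ± 228 (SD, n = 4)), and its copies outside exons leaned the other way, at 0.28 (SE 0.16). RLTR13G and UCON70, a conserved repeat, differed by -0.55 and -0.46 on the log2 scale, with F2 C above every F1 tumour for RLTR13G, and with F2 C and F2 E inside the F1 range for UCON70.

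**Figure D1:**
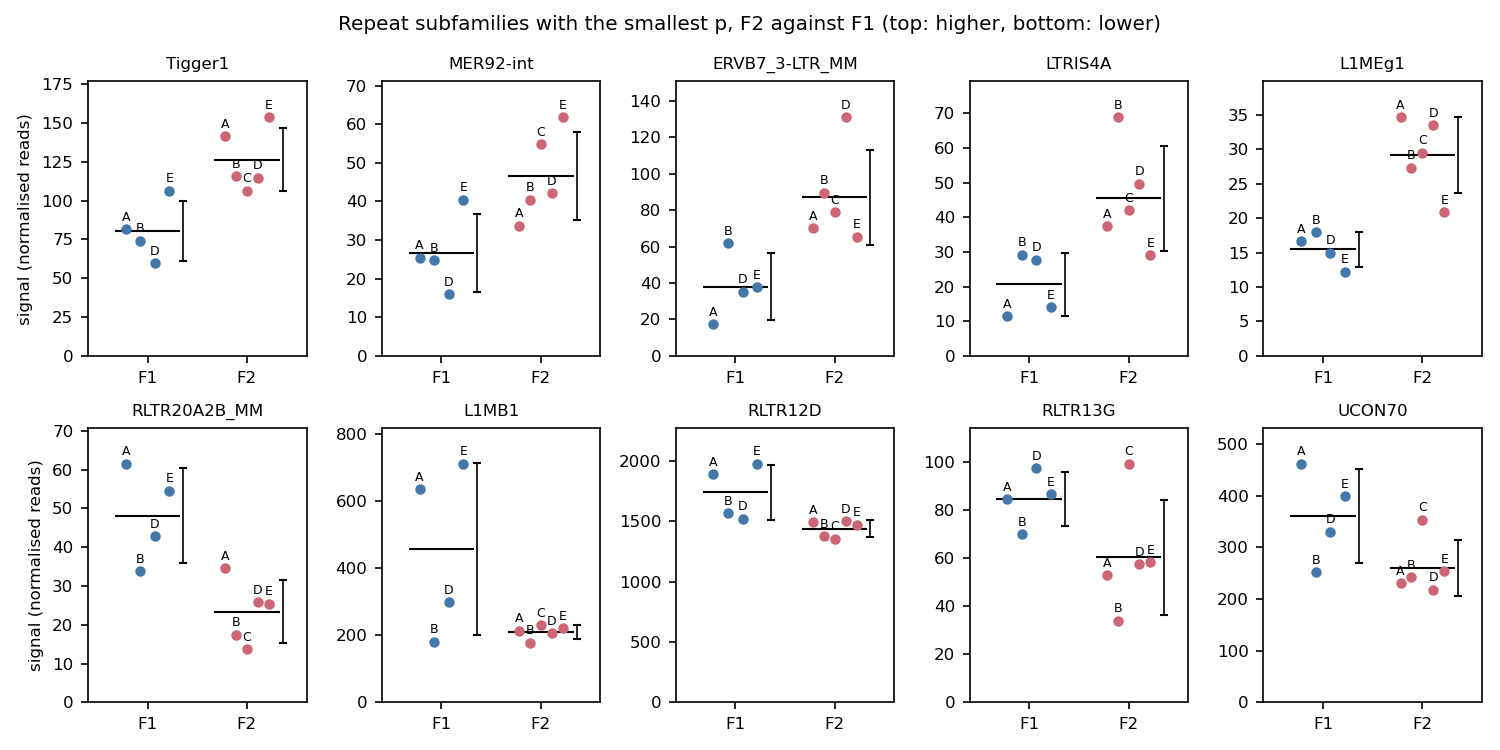
Signal (normalised reads, linear axis) of the 10 subfamilies with the smallest p, 5 higher and 5 lower in F2; each point is a tumour with its letter, the line is the mean and the bar beside it the SD (F1 n = 4, F2 n = 5). Groups are apart for Tigger1, ERVB7_3-LTR_MM, L1MEg1 and RLTR12D and overlap for the others.

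The retroviral families fixed for this report showed no call. IAPEz-int, the internal part of the IAP element, stood at 6816 ± 907 (SD, n = 4) in F1 and 6468 ± 1336 (SD, n = 5) in F2. MMVL30-int, the VL30 retroelement, was 18239, 15872, 32773 and 11580 in F1 and 13844, 45262, 22714, 20683 and 22118 in F2. F1 D and F2 B were the highest of their passages, and the spread within a passage exceeded the log2 difference of 0.34 (SE 0.33, limma adjusted p = 0.68). MMERGLN-int, a gammaretroviral element, averaged 45160 ± 13487 (SD, n = 4) against 59468 ± 20102 (SD, n = 5). MuLV-int, the murine leukaemia type, averaged 22485 ± 2734 (SD, n = 4) against 18130 ± 3337 (SD, n = 5), a log2 difference of -0.32 that became 0.04 outside exons. RLTR4_MM-int differed by 0.03 and MERVL-int by -0.30. The SINE subfamilies B1_Mm and B2_Mm2 were at -0.02 and 0.05. MMETn-int, of the ETn and MusD group, had no overlap between passages: its F1 values were 135, 136, 135 and 134 and its F2 values 176, 176, 212, 182 and 147 (log2 difference 0.39, SE 0.18, limma adjusted p = 0.421).

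By repeat list, 0 members passed in any of the 18 lists, and medians ran from -0.07 for MIR to 0.33 for ETn/MusD against 0.08 over all tested subfamilies. All 5 ETn/MusD subfamilies had a positive difference, and 1 of the 5 had an unadjusted p under 0.05. A positive difference was also found for all 5 B2 and all 7 B4 subfamilies, whose medians were negative with TMM factors, and for 20 of 25 young LINE-1 subfamilies, 67 of 92 MaLR subfamilies and 64 of 92 older LINE-1 subfamilies, beside 66.3% of all 1004. Of the MaLR subfamilies 13 were higher and 3 lower at an unadjusted p under 0.05, of the older LINE-1 subfamilies 9 and 1, and of 100 DNA transposon subfamilies 11 and 1, beside 8.86% higher and 1.99% lower over all tested subfamilies, so the last 2 lists lie near the background. The IAP list had 10 of 24 positive differences with a median of -0.03, and 4 of 8 MERVL subfamilies were positive. With TMM factors the medians of the MMERVK10C and RLTR10, MuLV, VL30, B1, L2 and DNA transposon lists were also below 0, and that of ETn/MusD was 0.24.

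The 5 copies with the smallest p on the higher side included 3 in the 3' UTR of Itih5 on chromosome 2, which encodes a heavy chain of the inter-alpha-trypsin inhibitor family that binds hyaluronan in the matrix. They are B1_Mur2 (chr2:10254836-10254962), Lx8 (chr2:10252533-10252873) and B4 (chr2:10255360-10255622), in mm10 coordinates. The B1_Mur2 copy had a signal of 0, 1.13, 12.8 and 0 in F1 A, B, D and E and of 10.9, 144, 160, 52.6 and 28.2 in F2. F1 D was the only F1 tumour within the F2 range. The log2 difference was 4.52 (SE 0.85, limma adjusted p = 0.119) and over the alternatives run the adjusted p ran from 0.00354 to 0.853. It was called in 6 of these, among them without F1 D and without F2 A.

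The whole Itih5 exon signal is the sum of its exon copies, the 3 above among them, so gene and copies share reads. It was 0, 5.63, 79.2 and 0.94 in F1 and 55.6, 568.5, 626, 179 and 129 in F2. Only F1 D, at 79.2, reached into the F2 range, above F2 A. The log2 difference was 5.25 (SE 1.17, limma adjusted p = 0.166), and without F1 D Itih5 passed (adjusted p = 0.0199; 0.0199 to 0.951 over the alternatives). In F0 it averaged 39.1 ± 56.6 (SD, n = 4) and in the parental YUMM1.7 cultures 681 ± 984 (SD, n = 3), with a range of 53.2 to 1815 that holds F1 D and all 5 F2 tumours. F1 A and F1 E held nearly none.

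Copies in the introns of 2 further genes stood higher. A copy named for MERVL_2A-int and MT2A in an intron of Numa1, which organises the mitotic spindle poles, (chr7:102003964-102004783) read 14.1, 19.1, 4.28 and 7.52 in F1 and 41.9, 24.1, 18.97, 27.7 and 49.98 in F2, F2 C lying just under F1 B. Without F1 B that copy was called (limma adjusted p = 0.0198; 0.0198 to 0.947 over the alternatives). MER20 in an intron of the imprinted exchange factor Rasgrf1 (chr9:90017589-90017753) averaged 12.0 ± 7.28 (SD, n = 4) in F1 and 59.3 ± 41.1 (SD, n = 5) in F2 with no overlap, and 102 ± 70.6 (SD, n = 4) in F0. Its F2 E value, 131, was the highest. The MER20 copy passed with a pseudocount of 4 (limma adjusted p = 0.0242; 0.0242 to 0.853 over the alternatives).

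On the lower side the 5 copies with the smallest p and a mean of at least 20 were mostly in 3' UTRs. Over all tested copies, 314 of the 801 lower at an unadjusted p under 0.05 lay in 3' UTRs, where 423 were higher. Those places held 8409 of the 33215 tested copies. PB1D10 (chr8:88328647-88328748) lies in the 3' UTR of Adcy7, an adenylyl cyclase, B4A in that of Ube2v2, a ubiquitin-conjugating enzyme variant, B1_Mus2 in that of Hnrnpab, an RNA-binding protein, and L1MDa (chr6:54982075-54983143) in that of Ggct, which acts in the glutathione cycle. The B4A copy (chr16:15554188-15554465) was lower in every F2 tumour, at 128, 78.8, 73.8 and 108 in F1 and 46.4 to 62.9 in F2. A B1_Mm copy between genes (chr11:33151943-33152067) averaged 42.2 ± 26.8 (SD, n = 4) against 15.9 ± 4.36 (SD, n = 5).

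The call of Ggct as a whole gene depended on 1 tumour and on the method. Its exon signal was 302, 218 and 198 in F1 A, D and E but 18.003 in F1 B, and 23.7 to 40.4 in F2. F1 B therefore sat below all F2 tumours while the other F1 tumours sat far above. The log2 difference was -1.90 (SE 0.53, limma adjusted p = 0.425), and Ggct was called by DESeq2 with all 9 tumours and by limma without F1 B (adjusted p = 0.00105; 0.00105 to 0.951 over the alternatives). Adcy7 also had its lowest F1 value in F1 B, with F1 values of 386, 154, 252 and 382 against 127, 119, 163, 161 and 108 in F2, where F1 B lay inside the F2 range. Its log2 difference was -1.04 (SE 0.25), and it too was called without F1 B (adjusted p = 0.033; 0.033 to 0.951 over the alternatives) and by DESeq2. In these 9 libraries the Adcy7 exon signal equals the PB1D10 copy, so copy and gene are the same measurement.

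Chchd4, which imports proteins into the mitochondrial intermembrane space, was lower in every F2 tumour. It read 45.7, 28.1, 21.4 and 54.5 in F1 and 18.2, 8.75, 9.49, 12.4 and 9.09 in F2 (log2 difference -1.57, SE 0.34, limma adjusted p = 0.166). DESeq2 called it (adjusted p = 0.0408; 0.0408 to 0.951 over the alternatives), and F0 averaged 18.6 ± 2.22 (SD, n = 4). Dhx37, an RNA helicase of ribosome assembly, averaged 83.3 ± 23.2 (SD, n = 4) against 44.1 ± 10.6 (SD, n = 5). Hnrnpab, whose signal is the 1 B1_Mus2 copy above, averaged 1022 ± 278 (SD, n = 4) against 656 ± 145 (SD, n = 5).

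On the higher side, the host genes after Itih5 were Gm45871, Mamstr, Cpne3 and Camk1. Cpne3, a calcium-dependent phospholipid-binding protein, was the 1 of these with groups apart, at 1106, 1504, 1180 and 1158 in F1 and 1549, 1684, 1583, 1982 and 1583 in F2. Its log2 difference was 0.44 (SE 0.12, limma adjusted p = 0.425). Mamstr, a coactivator of muscle transcription factors, averaged 157 ± 122 (SD, n = 4) against 319 ± 131 (SD, n = 5) and was called without F1 D (adjusted p = 0.0238; 0.0238 to 0.951 over the alternatives). Camk1, a calmodulin-dependent kinase whose exon copies overlap Ogg1, averaged 49.4 ± 28.5 (SD, n = 4) against 109 ± 37.4 (SD, n = 5), and reads of the 2 genes cannot be told apart there. It was called without F1 B (limma adjusted p = 0.0488). Gm45871 averaged 55.1 ± 13.9 (SD, n = 4) against 95.4 ± 15.5 (SD, n = 5).

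DESeq2, run on the recovered reads, called 8 host genes, each lower in F2: Ggct, Adcy7, Chchd4, Ptpn7, Smim3, 2010204K13Rik, Trp53i11 and Edaradd. Ptpn7, a tyrosine phosphatase of blood cells, was at 0 in all 5 F2 tumours and at 1.76, 9.002, 4.28 and 13.2 in F1, at least 11.9-fold lower against a floor of 3 reads over the F2 group. Trp53i11 had 46.5, 25.9, 61.0 and 46.1 in F1 and 3.65, 16.4, 4.21, 16.3 and 2.73 in F2, and its signal comes from 1 copy, RLTR20C1_MM. Edaradd, an adaptor of the ectodysplasin receptor, averaged 37.5 ± 21.97 (SD, n = 4) against 9.13 ± 2.99 (SD, n = 5), with no overlap. DESeq2 also called 3 copies: L1MDa of Ggct, RLTR20C1_MM of Trp53i11, and Lx8b between genes on chromosome 19, which was at 0 in all F1 tumours and at 88.4 in F2 A and 360 in F2 E only. In limma the Lx8b copy had an adjusted p of 0.673.

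**Figure D2:**
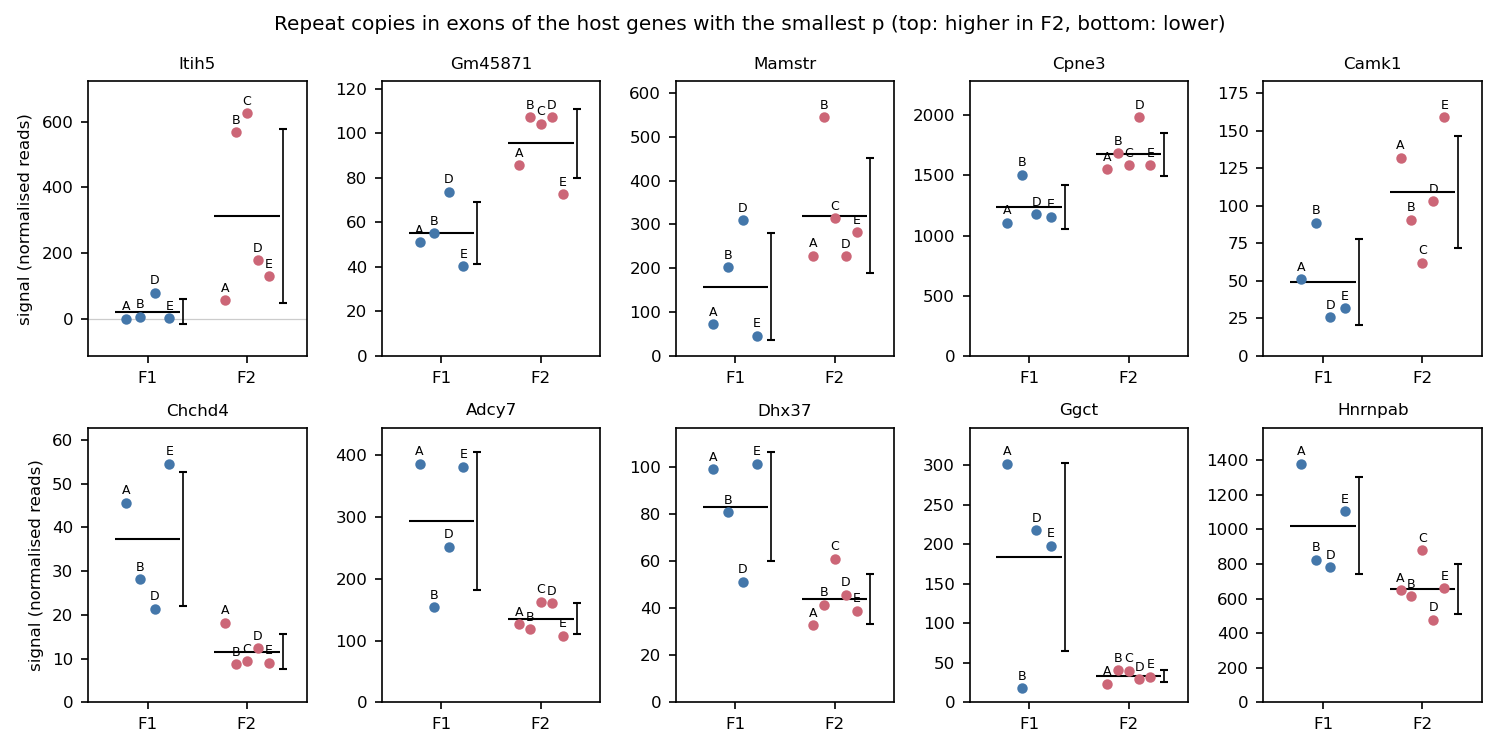
Signal (normalised reads, linear axis) summed over the exon copies of the 10 host genes with the smallest p, 5 higher and 5 lower in F2; each point is a tumour with its letter, the line is the mean and the bar beside it the SD (F1 n = 4, F2 n = 5). F1 B lies below F2 for Ggct and inside its range for Adcy7, and F1 D alone reaches the F2 range for Itih5.

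A pair of adjoining young LINE-1 copies was called only where more weakly read copies were tested. L1MdA_III (chr9:55769759-55774262) and L1MdF_II (chr9:55774261-55776045) lie in an intron of Scaper, which encodes a cyclin A-binding protein. Their mean over all 40 libraries was under the minimum of 5. L1MdA_III read 30.7, 2.25, 9.63 and 31.0 in F1 and 0, 0, 1.05, 0 and 1.82 in F2, and L1MdF_II read 14.9, 2.25, 8.56 and 20.7 in F1 and 0, 0, 0, 0 and 0.909 in F2. Every F1 tumour lay above every F2 tumour, with F1 B near the F2 range for both. With no filter both had a limma adjusted p of 0.00135, and with the minimum applied to the 9 libraries 0.00513. Both reach that minimum only through F1, the group where they are high, so that p does not support the difference. In F0 the means were 0 and 0.229, and both were at 0 in the parental cultures.

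Most tested interferon response genes had higher mean log2 values in F2 than in F1, without a call. Interferons bind receptors whose signal reaches the nucleus through Stat2 and Irf9, among others, and induces antiviral genes such as Ifit1, Isg15 and the Oas family; RNA from repeats can trigger the sensors Ifih1 and Ddx58 upstream of them. Of 38 genes in the list 25 were tested, and 24 of these had a positive log2 difference, beside 55.1% of all tested host genes. The median was 1.11 and 0 passed. At an unadjusted p under 0.05, 7 were higher and 0 lower, beside 5.9% higher over all tested host genes (Ifit2, Irf9, Stat2, Ifi44, Xaf1, Dtx3l and Ddx58). The 7 became 1 with edgeR, 2 with DESeq2, 2 with the F1 and F2 libraries alone and 3 with the replicate block. The smallest limma adjusted p was 0.425.

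The summed signal of the tested list was 1741, 9807.5, 2324 and 2659 in F1 A, B, D and E and 5795, 5083, 7292, 14391 and 2654 in F2 A to E. F1 B stood far above the other F1 tumours and below only F2 D, and F2 E was level with F1 E. The passages overlap in the sum and for each of the 25 genes, as they do for most host genes (0.958% of all tested lie wholly higher and 0.823% wholly lower). F2 D was the highest library for 21 of the 25 genes, and F1 B and F2 D were the highest pair for 19. Stat2 read 104.5, 597.5, 158 and 114 in F1 and 492, 301, 442, 1082.5 and 228 in F2 (log2 difference 1.25, SE 0.52, limma adjusted p = 0.464). Irf9 read 26.3, 515, 58.8 and 118 in F1 and 304, 260, 277, 655 and 92.7 in F2, and Ifit2 averaged 360 ± 175 (SD, n = 4) against 619 ± 129 (SD, n = 5). The 1 gene with a negative difference was Oasl1, at 31.8 ± 21.6 (SD, n = 4) and 33.5 ± 36.1 (SD, n = 5) as means, whose log2 difference was -0.49, opposite in sign to the difference of the means; with edgeR and with DESeq2 all 25 were positive.

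Single tumours moved this list. Without F1 B the median difference was 1.80 and 18 of 25 had an unadjusted p under 0.05, with a smallest limma adjusted p of 0.0697. Without F1 A the median was 0.79 and 1 gene had an unadjusted p under 0.05. Without F2 D the median was 0.82 with 1 such gene, and without F2 E it was 1.49 with 15. With F1 B and F2 D both left out, a choice made after seeing the data, the median was 1.35 with 14 genes. No member passed in any of these fits. The macrophage genes Adgre1 and Itgam, as given above, were above 0 in F1 B, F1 D and F2 D. Adgre1 read 11.3, 9.63 and 1.91 there, and Itgam 3.38, 3.21 and 1.91. In F1 D the summed signal of the interferon list was 2324, far below that of F1 B. Of the other macrophage markers, Cd14 was lowest in F2 D, at 7.65, and Tyrobp and Laptm5 were at 0 throughout. The part of these genes in the result was not tested.

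Promoter windows of 3 members are printed because the list's genes are high and low in the same tumours and because these windows hold the interferon-stimulated response element written here as GAAANNGAAA. The windows run from 250 bases before to 50 after a gene start, on the gene's strand, from RefSeq in build GRCm38.p6, and matches on either strand are in capitals.
Stat2 (chr10:128270248-128270547, plus strand): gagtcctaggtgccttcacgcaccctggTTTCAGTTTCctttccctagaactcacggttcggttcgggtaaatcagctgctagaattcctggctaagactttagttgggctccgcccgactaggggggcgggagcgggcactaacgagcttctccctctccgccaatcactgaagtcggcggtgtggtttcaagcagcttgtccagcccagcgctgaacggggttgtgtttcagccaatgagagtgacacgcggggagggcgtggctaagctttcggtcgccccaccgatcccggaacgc
Ifit1 (chr19:34640639-34640938, plus strand): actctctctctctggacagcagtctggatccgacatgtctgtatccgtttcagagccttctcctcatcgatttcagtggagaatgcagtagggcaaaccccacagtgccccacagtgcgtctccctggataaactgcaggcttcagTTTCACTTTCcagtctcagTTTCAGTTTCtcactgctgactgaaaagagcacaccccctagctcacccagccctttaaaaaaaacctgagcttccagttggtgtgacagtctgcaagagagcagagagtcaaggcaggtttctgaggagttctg
Isg15 (chr4:156200769-156201068, minus strand): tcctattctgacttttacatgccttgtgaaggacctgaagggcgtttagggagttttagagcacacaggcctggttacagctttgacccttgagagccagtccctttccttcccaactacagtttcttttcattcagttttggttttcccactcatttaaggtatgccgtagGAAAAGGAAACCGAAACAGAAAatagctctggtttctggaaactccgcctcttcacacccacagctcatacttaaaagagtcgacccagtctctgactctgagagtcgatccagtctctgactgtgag
Ifit1 read 88.7, 611, 101.6 and 93.1 in F1 and 308, 374, 514, 953 and 85.4 in F2, and Isg15, a ubiquitin-like modifier, at most 20.3 in F1 and 44.9 in F2; these 2 were named for their windows after their values were seen. Of the 25 tested list genes 18 matched a window in the table, and 8 of the 18 held the motif on either strand in at least one window. Among all tested host genes with a window it was found in 213 of 5442, or 3.91%, and in 3.44% of the 32851 windows of the table. Stat2 and Ifit1 have it on the strand opposite to the gene and Isg15 on the gene strand, where 3 matches overlap. Of the 7 list genes with an unadjusted p under 0.05, Stat2 and Ddx58 hold a match. The windows of Ifit2, Irf9, Ifi44, Xaf1 and Dtx3l hold none. Ifit1 and Isg15 are not among the 7 (limma unadjusted p = 0.15 and 0.392). These letters are a description of the windows, and binding was not measured.

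**Figure D3:**
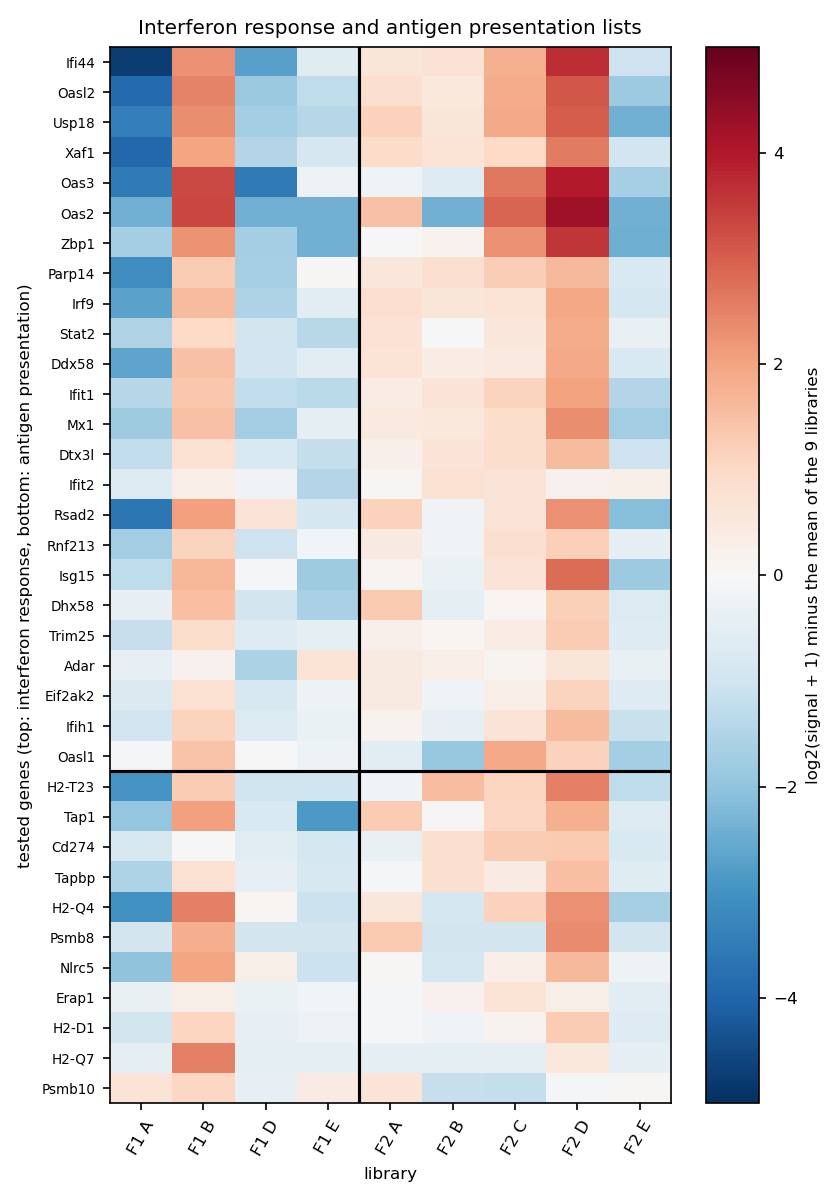
Difference of log2(signal + 1) from the mean of the 9 libraries for the tested interferon response genes (24 of the 25, above the line) and antigen presentation genes (11 rows below it), with F1 left and F2 right of the vertical line; red is above and blue below the mean. F1 B and F2 D are red for most genes, and F1 A and F2 E are mostly blue.

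Antigen presentation genes, which load and display peptides on MHC class I, also had their highest sums in F1 B and F2 D. Of 11 tested, 9 had a positive difference, beside 55.1% of all tested host genes, with a median of 0.41; 3 were higher at an unadjusted p under 0.05 and 0 passed. Single tumours moved this list too: without F2 D the median was 0.16 with 7 positive, without F1 A 0.18 with 6, without F1 E 0.25 with 9, and without F1 B 1.11 with 10. Without F2 B and without F2 E it was 0.69 with 9 each. With edgeR and DESeq2 7 were positive, with medians of 0.27 and 0.26. H2-T23, a non-classical class I gene, read 10.5, 209, 43.9 and 43.3 in F1 and 74.7, 257, 187, 512.5 and 35.4 in F2. Tap1, a peptide transporter, averaged 8.34 ± 14.01 (SD, n = 4) against 12.8 ± 8.06 (SD, n = 5), while Psmb10, an immunoproteasome subunit, averaged 9.20 ± 3.88 (SD, n = 4) against 5.28 ± 3.30 (SD, n = 5).

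The other host gene lists held no call. Repeat silencing genes had a positive difference in 12 of 25 and a median of -0.04, which was 0.03 without F1 E, 0.06 without F2 C, -0.16 without F1 B, -0.11 without F1 D, -0.13 without F2 E and 0.03 with edgeR. Trim28, the KAP1 corepressor, averaged 23.5 ± 6.89 (SD, n = 4) against 36.6 ± 22.2 (SD, n = 5), and Hells, a chromatin remodeller needed for DNA methylation, 398 ± 102.6 (SD, n = 4) against 285 ± 89.3 (SD, n = 5). Zfp809, a zinc finger protein that binds retroviral sequence, averaged 452 ± 42.6 (SD, n = 4) against 409 ± 67.8 (SD, n = 5). Cell division genes had a positive difference in 5 of 17 and a median of -0.12. Without F2 D the median was 0.01 with 9 positive, without F2 B -0.03 with 7, without F1 A or F1 E -0.07 with 5 and 6, without F1 B -0.22 with 3 and without F2 E -0.30 with 3. Ccne2, a cyclin of S phase entry, was the 1 with an unadjusted p under 0.05, at 238 ± 76.5 (SD, n = 4) against 154 ± 40.05 (SD, n = 5). Hypoxia and glycolysis genes were positive in 7 of 10 with a median of 0.29, which was -0.03 with 5 positive without F1 A, 0.16 with 7 without F2 E and 0.56 with 8 without F1 E. The demethylase Kdm3a averaged 1.40 ± 1.13 (SD, n = 4) against 5.15 ± 2.45 (SD, n = 5). These are a few reads per tumour, at 0 to 2.64 in F1 and 1.82 to 8.43 in F2, and the passages overlap. Of the 3 tested MAPK feedback genes Etv1, a transcription factor downstream of ERK, averaged 210 ± 57.3 (SD, n = 4) against 358 ± 123 (SD, n = 5). Matrix and TGF-beta genes were positive in 6 of 8, with Sparc, a collagen-binding matrix protein, at 10.4 ± 7.16 (SD, n = 4) against 21.04 ± 14.9 (SD, n = 5).

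Tumours of one passage varied. Among copies with a mean of at least 20, the median SD of log2(signal + 1) was 0.40 within F1 and 0.37 within F2, beside a median absolute difference between passages of 0.23. The SD is of single tumours and the difference is of group means, so their sizes are not directly comparable. Some copies were close to all-or-none between tumours. B4 in an intron of Zdhhc4 (chr5:143323393-143323509) read 681 in F2 B and 350 in F2 C and at most 1.82 in the other 7 tumours. B1_Mur4 in an intron of Tapbp (chr17:33923371-33923516) read 868 in F1 A, 792 in F2 C and 542 in F2 E and at most 1.13 elsewhere. ID_B1 between genes (chr5:142955278-142955393) read 576 and 1524 in F1 B and F1 D and 1471 and 820 in F2 A and F2 E, at most 1.09 elsewhere and 0 throughout F0 and the parental cultures. RLTR15 (chr7:144978190-144978261) read 321 and 358 in F1 D and F1 E and 497 and 358 in F2 D and F2 E, with 0 elsewhere in these passages.

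Some B1_Mm copies were also close to all-or-none. The copy in an intron of Lyn (chr4:3782416-3782568), a Src-family kinase, read 372 in F1 A, 353 in F1 E and 47.4 in F2 A. One on chromosome 15 (chr15:76937461-76937605) read 630 in F1 A and 0 in the other 8 tumours, and one on chromosome X (chrX:102161135-102161281) read 29.3 in F1 B and 460, 531 and 85.1 in F2 A, B and D, with 0 in the other 5. None of these copies was called. Host genes with the widest spread were Oas2, Oas3, Angptl7, Ankrd1, Emx2os, Gm4951, F830016B08Rik and AC132320.1. Gm4951 and F830016B08Rik read 204 and 164 in F1 B and 321 and 585 in F2 D, at most 10.3 and 20.7 in the other F1 tumours.

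**Figure D4:**
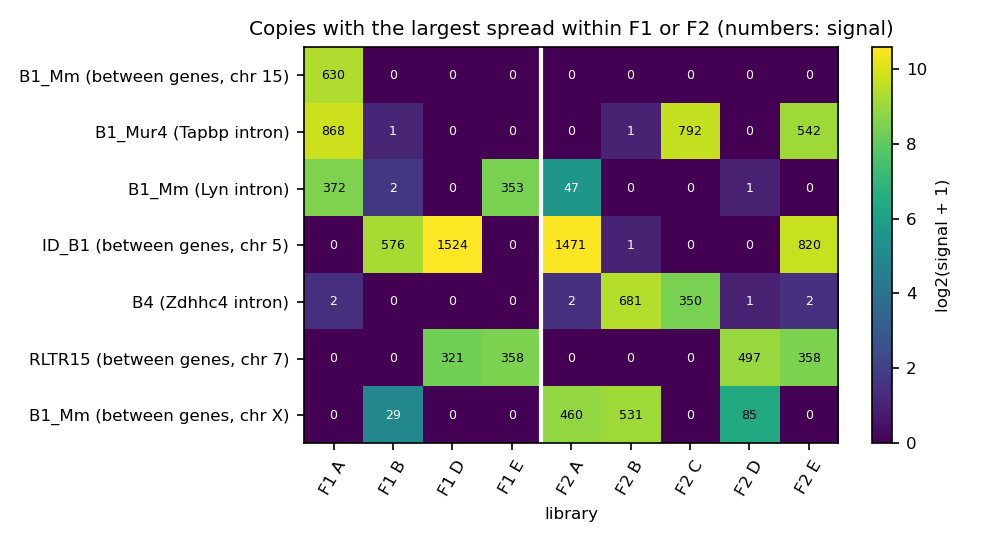
Signal of the 7 copies with the largest spread within F1 or F2, coloured by log2(signal + 1) with the signal printed in each cell; the white line divides F1 from F2. Most cells are at 0 to 2.25 and the rest at 29.3 to 1524, in different tumours for each copy.

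Where the signal lay relative to genes did not separate the passages. Introns held 17.4% ± 2.95 (SD, n = 4) of the signal in F1 and 18.9% ± 4.32 (SD, n = 5) in F2, and 3' UTRs 49.4% ± 2.09 (SD, n = 4) and 48.2% ± 4.31 (SD, n = 5). Coding exons had the smallest p, at 10.1% against 9.14% (exact two-sided permutation p = 0.127, adjusted over 6 places 0.619; the smallest p possible is 0.00794). Intron shares were widest in F2 A (22.4%) and F2 E (24.4%) and in F1 E (21.4%).

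By chromosome, exon copies on chromosome 15 were lower in every F2 tumour. The median deviation was 0.04, 0.20, 0.00 and 0.02 in F1 A, B, D and E and -0.09, -0.08, -0.05, -0.06 and -0.05 in F2 A to E on the log2 scale, over 251 copies. The difference of -0.13 reached the smallest p possible (exact two-sided permutation p = 0.00794). Adjusted over 20 chromosomes that p was 0.159, so chromosome 15 did not pass. A single chromosome at the smallest p possible cannot pass this adjustment, so the test could not have called chromosome 15 alone. Without F1 B, the highest, the difference was -0.09. Chromosome 19 separated tumours within passages: F1 A and F1 E were at -0.24 and -0.29 and F2 D at -0.19, while F2 B and F2 E were at 0.20 and 0.26. Chromosome 3 was at -0.17 in F1 A and -0.16 in F2 C and between -0.04 and 0.15 in the remaining tumours.

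**Figure D5:**
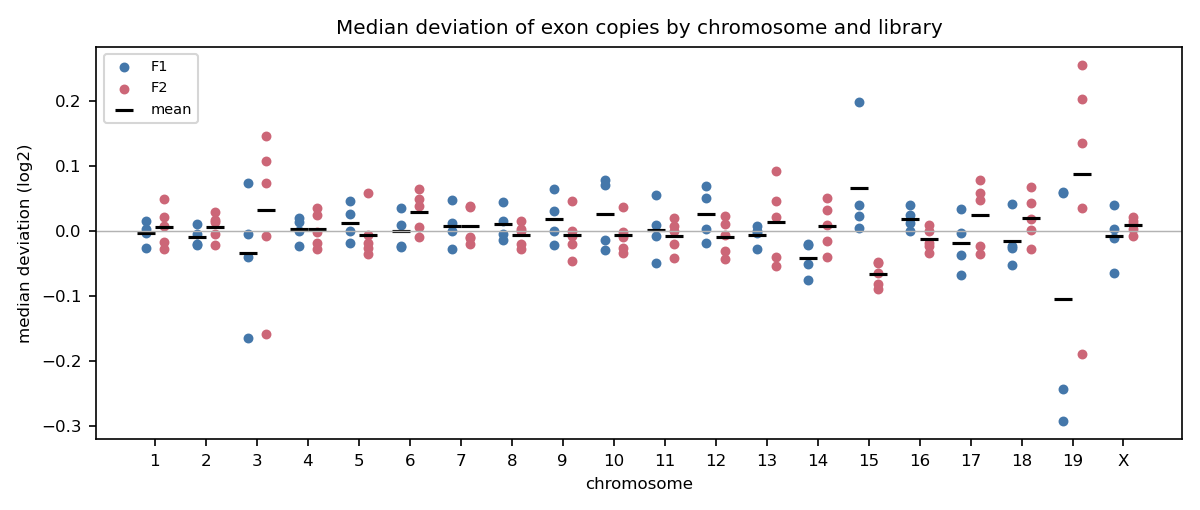
Median deviation (log2) of exon copies with a mean signal of at least 20 by chromosome; each point is a tumour (F1 left, F2 right) and the bars are group means. On chromosome 15 the F1 and F2 points do not overlap, and chromosomes 3 and 19 have the widest spread within a passage.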

How the data were processed

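Poly(A) RNA-seq of 40 libraries was deposited by the authors as 1 table of normalised signal per annotated repeat copy; the 9 F1 and F2 libraries are described here. Per the submitters' processing notes, the tools named are featureCounts 1.5.0-p3, HISAT2 2.0.5 and StringTie 1.3.3b, with build mm10 and no roles. How multimapping reads were counted is not stated in the labels. The deposited signal is whole reads divided by 1 factor per library: at least 99.995% of values in each of these libraries were whole multiples of 1 read within 0.1, and reads were recovered by that division. Directional and other kits are both mentioned, per the labels' protocols, so reads of overlapping genes on opposite strands may not be separated. The floor of 3 reads covers counting error only.

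Copies were tested singly, as subfamily sums and as sums over copies in the exons of a gene (GENCODE annotation, bedtools 2.31.1). The test was limma 3.58.1 (R 4.3.3; trended prior, two-sided, Benjamini-Hochberg) on log2(signal + 1), fitted to 11 group means over all 40 libraries so that they share 1 estimate of the spread, for features whose mean reached 5; changes of low features are understated on this scale. Shares and chromosome medians (median over exon copies of the deviation of log2 signal from the mean of the 9 libraries) used exact permutation tests. Alternatives included edgeR 4.0.16 and DESeq2 1.42.0 on the recovered reads, TMM factors, other pseudocounts and filters, an intron covariate, a block by letter and each tumour left out; leaving out F1 B together with F2 D was chosen after seeing the data. The limma step was also run on simulated reads with known changes, whose outcome is not reported here. Those reads had no shifts shared by many copies of 1 tumour, so the run does not show what changes could be called in these libraries. Figures used Python 3.11.15 and matplotlib 3.10.9.

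Members and lists were chosen with earlier results of these data known. Since nothing was called, named features were the 5 smallest unadjusted p in each direction with a mean of at least 20, with fixed subfamilies, list members and the widest spreads; features called under an alternative were added afterwards. The MuLV list was narrowed to MuLV and RLTR4 names because its pattern also took other RLTR families. One tested gene of the interferon list enters its counts and sums and is not reported here by name or drawn.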

Additional observations from a re-analysis of the deposited data

Results flagged for a closer look

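In each passage the highest or lowest tumour was compared with the rest by the gap to its nearest neighbour over the whole range. Of 170 groups examined, 32 had a tumour standing apart. The cutoff gives about 1 in 20 by chance for normally distributed values, and feature signal was not log-transformed. Some features were examined because they had been chosen for a wide spread within a passage, and the features are not independent of each other. The count of 32 is therefore not comparable with that share.

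F1 B stood above the other F1 tumours for 11 host genes. Its signal was 597.5 for Stat2, 611 for Ifit1, 115.9 for Oas3, 51.8 for Oas2, 64.1 for Oasl1, 29.3 for Tap1 and 209 for H2-T23. It was 159 for Angptl7, 204 for Gm4951, 164 for F830016B08Rik and 37.1 for AC132320.1. F2 D stood above the other F2 tumours for Angptl7 (557), F830016B08Rik (585), AC132320.1 (148), Zfp809 (525) and Isg15 (44.9). F2 B stood above for Mamstr (544), Emx2os (98.4) and the subfamily MMVL30-int (45262), and F2 C for the subfamily UCON70 (354). F1 D stood above for Itih5 (79.2) and its copies B1_Mur2 (12.8), Lx8 (22.5) and B4 (32.1).

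Among single copies, F1 A stood above the other F1 tumours for B1_Mm on chromosome 15 (630), B1_Mur4 in Tapbp (868) and B4 in Zdhhc4 (1.76, which is 2 reads). F1 B stood above for B1_Mm on chromosome X (29.3), F2 A for B1_Mm in Lyn (47.4), and F2 E for Lx8b on chromosome 19 (360) and MER20 in Rasgrf1 (131). The 3' UTR share of the signal was 46.3% in F1 E, below the other F1 tumours.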

How the results depend on the processing

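Calls between F2 and F1 depended on the setting, and no feature was called in opposite directions under 2 settings. For single copies the count of 0 became 3 with DESeq2, 3 with a pseudocount of 4, 9 with no filter, 3 with the filter on the 9 libraries and 1 with the intron covariate. It ran from 0 to 9 with 1 tumour left out (9 without F1 B, 6 without F1 D, 1 without F2 A and 1 without F2 C), and was 7 without F1 B and F2 D. For subfamilies it became 1 with TMM factors and 2 with the intron covariate, and ran from 0 to 2 with 1 tumour left out (2 without F1 B, F1 E or F2 A, 1 without F2 C). For host genes it became 8 with DESeq2, ran from 0 to 9 (9 without F1 B, 2 without F1 D) and was 2 without F1 B and F2 D. Shares by place and chromosome medians gave 0 under each setting run. A single chromosome could not pass at the smallest p possible, nor could a single place with 1 tumour left out. These counts of 0 therefore do not show stability. The sign of the difference changed under at least one setting for 9 of 61 named host genes, 4 of 29 copies and 28 of 51 subfamilies. The cause of these changes was not tested. A copy at the minimum mean of 5 rests on about as many reads per library.

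With the tumour letter as a replicate block, 1 subfamily was called (LTRIS2, limma adjusted p = 0.0432), and 0 copies and 0 host genes. Letters name different tumours, and deviations of same-letter tumours correlated from -0.05 to 0.34 over host genes, inside the range of tumours with different letters (-0.36 to 0.41). Over copies the ranges were -0.05 to 0.28 for the same letter and -0.23 to 0.26 for different letters. Over subfamilies they were -0.02 to 0.279 and -0.27 to 0.276. At each level the highest same-letter value was that of F1 E with F2 E. These values do not pair the samples, and descent by letter is not stated.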
